A study of Mus musculus with 11 samples.

Results

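Mouse embryonic stem (ES) cells grown in agarose microgels were compared with the same cells on tissue-culture plastic, both in 2i/LIF medium. All 6 bulk RNA-seq libraries of the series carry these labels, 3 for gel and 3 for plastic, among 11 samples in all. Both groups hold wild-type cells of a line labelled Rex1GFPd2, and each library was made with Smart-seq2, a full-length cDNA method, from about 1000 cells. The 5 other samples are single-cell libraries and were not used here. The table listed 12588 genes, of which 7878 passed a filter on low reads and were tested.

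An agarose microgel is a soft bead that surrounds the cells on every side, whereas plastic is a stiff flat surface. 2i/LIF joins an inhibitor of MEK and an inhibitor of GSK3 with the cytokine LIF, which signals through STAT3, and keeps ES cells in the naive pluripotent state. Cells read the stiffness around them through integrins, actin and the YAP and TEAD factors, while growth, translation and energy supply follow nutrient and cytokine signals.

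The deposited values are gene counts divided by 1 factor per library, so a value of 100 means the same in each library but cannot be compared between genes of unequal length. Recovered reads came to 866721, 808903 and 707718 in gel and to 2390575, 2583256 and 637235 in plastic, and plastic therefore held the deepest libraries and the shallowest. Core pluripotency factors were all present, with 26 of 26 listed genes tested. Defining markers of other cell types were mostly missing from the table: Gata6, Gata4 and Sox17 of primitive endoderm, T and Eomes of mesendoderm, Sox1 of neural cells, Elf5 of trophoblast and Col1a1 of fibroblasts were not listed. The summed level of the 6 primitive endoderm genes listed of 20, Apoe and Sparc among them, was 817 to 849 in gel and 646 to 731 in plastic, that of the 2 fibroblast genes of 20, nearly all Vim, 220 to 255 and 124 to 142. Of 14 mesendoderm genes 2 were listed and summed to 18.4 to 20.6 against 7.59 to 13.3, of 14 neural genes 4 summed to 68.7 to 77.4 against 95.1 to 102, and of 14 trophoblast genes 3 summed to 36.1 to 49.5 against 30.4 to 43.6. Their part in the results was not tested.

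Gel and plastic differed across a large share of the transcriptome. By limma, at a Benjamini-Hochberg adjusted p under 0.05, 1438 genes were higher (18.3% of those tested) and 1468 lower in gel (18.6%), with a median log2 fold change of -0.022 over all tested genes. Values of the 3 gel libraries lay wholly on 1 side of the plastic values for 3897 genes (49.5%). The typical called change was modest: the median was 0.83 among genes that rose and -0.68 among those that fell, and 727 called genes reached an absolute log2 fold change of 1. Genes that passed the filter on reads only through the group in which they were high had to differ. Their calls and fold changes are therefore no independent support. Nothing in the labels says that the 3 replicates of a group were separate cultures, so the p-values measure the spread between these samples, which may be technical. In bulk samples fewer cells of a type and less RNA per cell cannot be told apart, and this holds for every group of genes below.

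**Figure D1:**
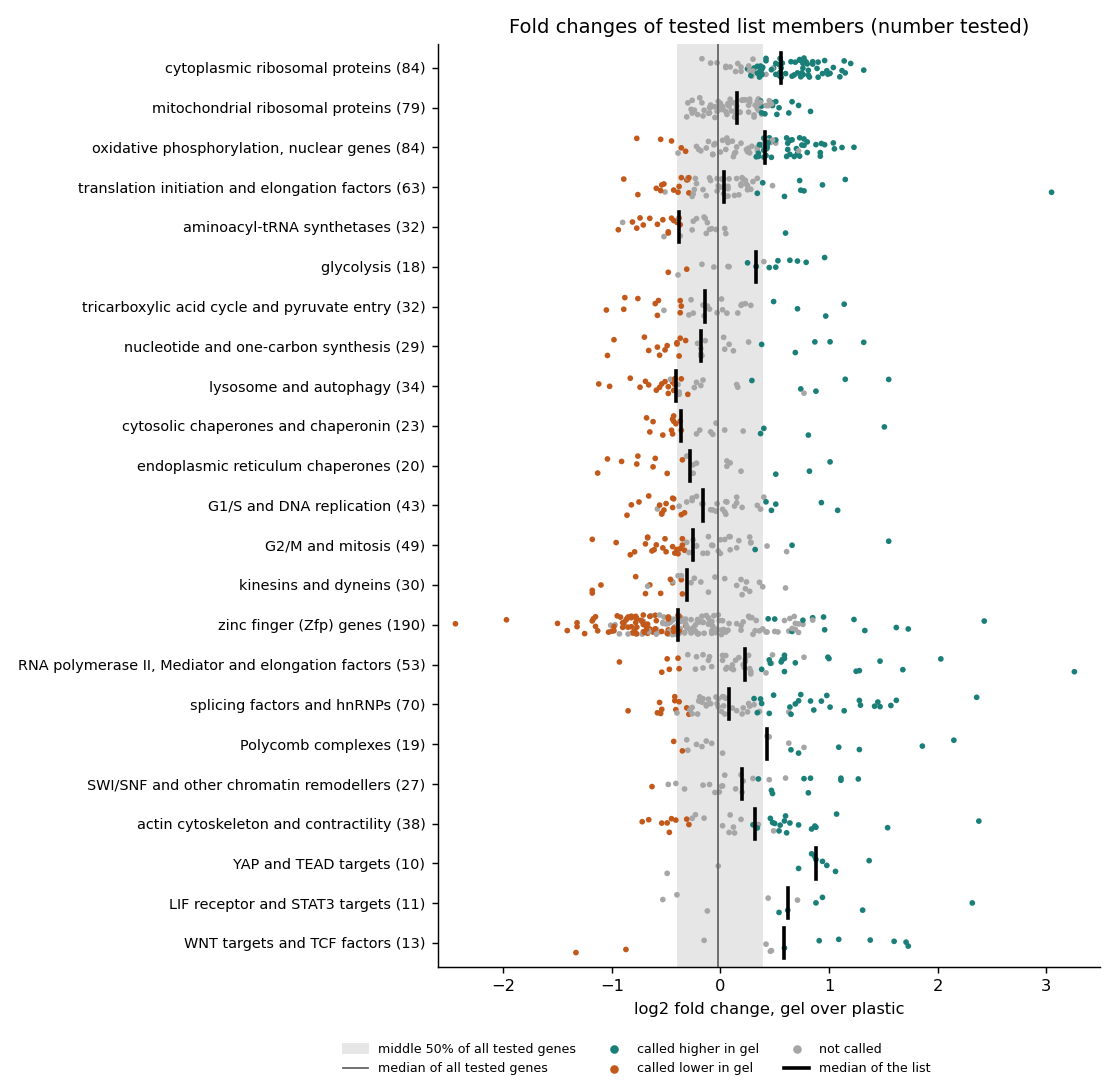
Log2 fold change of gel over plastic (horizontal axis) for each tested member of 23 gene lists, with the number tested in brackets, called members in colour, the list median as a black bar and the middle 50% of all tested genes as a grey band. Cytoplasmic ribosomal proteins and nuclear oxidative phosphorylation genes sit to the right of the band's centre, with medians of 0.56 and 0.41, and lysosome, tRNA synthetase and Zfp genes to the left, with medians of -0.41, -0.38 and -0.39.

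Genes for the cytoplasmic ribosome were higher in gel. Of 84 tested ribosomal protein genes, 67 rose and 0 fell, and the median log2 fold change was 0.56. Large-subunit genes (38 of 49 rose, median 0.56) and small-subunit genes (29 of 35 rose, median 0.55) both contributed. Together the 86 listed ribosomal protein genes took 4.29%, 4.19% and 4.03% of all values in gel and 3.26%, 3.22% and 2.65% in plastic, so the groups did not overlap and plastic replicate 3 was the lowest. Without plastic replicate 3, 52 of 84 rose and 1 fell, with a median of 0.42.

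Rpl39, a small protein of the large subunit at the exit tunnel, had values of 228, 249 and 198 in gel and 102, 107 and 65.3 in plastic. Every gel library exceeded every plastic one (log2 fold change 1.32, SE 0.16, adjusted p 1.31e-05). Rpl28 of the large subunit had 133, 118 and 85.2 in gel and 50.3, 49.3 and 44.0 in plastic (log2 fold change 1.20, SE 0.17, adjusted p 4.95e-05), and Rplp1 of the stalk, which binds elongation factors, had 599, 603 and 529 in gel and 304, 308 and 185 in plastic (log2 fold change 1.15, SE 0.15, adjusted p 1.94e-05). Ribosomal protein genes have many processed pseudogenes, and reads may be divided between copies: 74 of 89 tested pseudogenes with a ribosomal protein symbol also rose, 0 fell, and their median was 0.70. Mitochondrial ribosomal proteins had 13 of 79 higher, near the share over all genes, 0 lower and a median of 0.15. The number higher was 6 to 8 without gel replicate 1 or 3 or without plastic replicate 1 or 3.

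Other parts of the translation machinery showed no rise as common as that of the ribosomal proteins. Among 63 initiation and elongation factors, 9 rose and 14 fell (median 0.03), near the share over all genes, and 8 fell without plastic replicate 2. The balance of calls turned with correction: 13 rose and 10 fell after GC correction (median -0.02). After GC and length correction 16 rose and 8 fell (median 0.03), against 15.7% and 15.5% of all genes. Eef2, which moves the ribosome along the message, was at 789 ± 51.5 in gel and 461 ± 15.3 in plastic (SD, n = 3; log2 fold change 0.77), Eif1, which guards start codon choice, rose by 0.94 and Eif3f of the eIF3 complex by 1.15. Eif5 and Eif2b3, which serve the GTP cycle of eIF2, fell by 0.59 and 0.89. Aminoacyl-tRNA synthetases, the enzymes that charge tRNAs, went down: 15 of 32 fell and 1 rose, with a median of -0.38. This list leaves out Lars2, which rose. It is described below with symbols in which ribosomal RNA reads are known to be counted, and the origin of its reads was not tested. Lars, the cytosolic leucine enzyme, had 135, 167 and 96.2 in gel and 251, 219.9 and 282 in plastic (log2 fold change -0.94), and Dars and Cars changed by -0.81 and -0.77. Vars (0.60) was the 1 member of the list that rose, and it lost its call when GC content was corrected and without plastic replicate 2. Of 20 cytosolic synthetases 12 fell, and of 13 mitochondrial ones, Lars2 included, 3 fell.

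Ribosome biogenesis genes went both ways, with 11 of 39 higher, 8 lower and a median of -0.05. Fbl, the nucleolar methyltransferase, rose by 1.34 and Nop10 of the pseudouridylation particle by 1.04. Gnl3 and Wdr43, both nucleolar, changed by -0.55 and -0.54, while Npm1 (0.08) and Ncl (0.03) were not called.

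**Figure D2:**
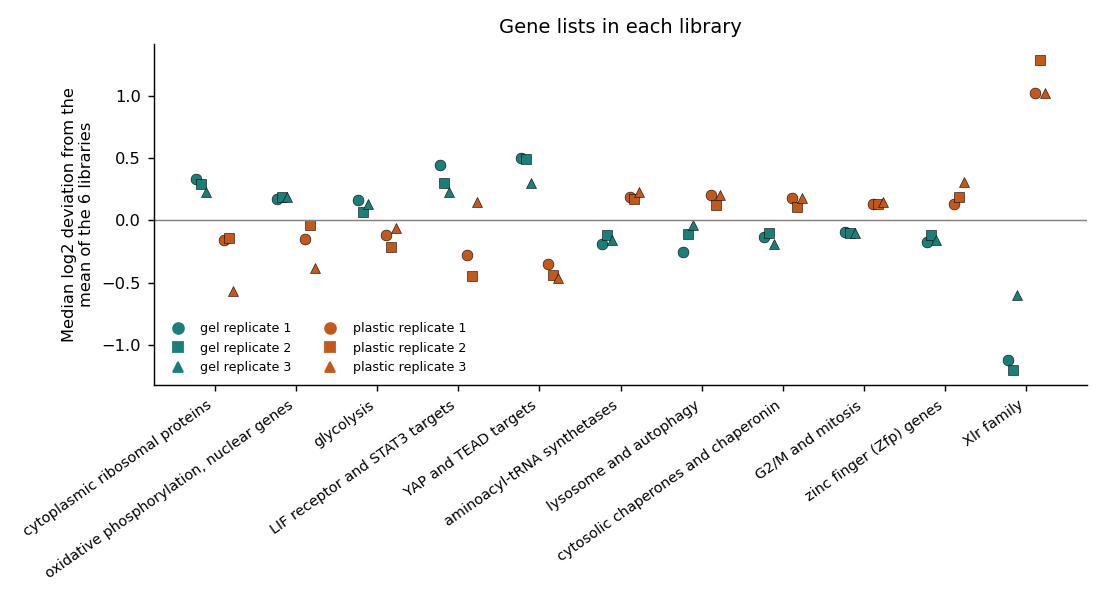
Median deviation of the tested members of 11 gene lists from the mean of the 6 libraries (vertical axis, log2) in each gel and plastic replicate. Gel and plastic libraries do not overlap in any of these lists. For LIF receptor genes and STAT3 targets the gap is small, with gel replicate 3 at 0.23 and plastic replicate 3 at 0.15, and plastic replicate 3 is the lowest for ribosomal proteins, at -0.57.

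Nuclear genes of oxidative phosphorylation were higher too. The list covers respiratory complexes I, III and IV and the ATP synthase of the inner mitochondrial membrane, while complex II is in the citric acid cycle list. Of 84 tested genes 42 rose and 5 fell (median 0.41). Counted by symbol, 17 of 46 Nduf genes (complex I), 5 of 8 Uqcr genes (complex III), 8 of 13 Cox4 to Cox8 genes (complex IV) and 12 of 17 Atp5 genes (ATP synthase) rose. The Nduf symbols include the Ndufaf assembly factors and a pseudogene. The Atp5 symbols of the list include Atp5s, Atp5sl and pseudogenes, so these are not counts of subunits. Atp5k, a small ATP synthase subunit, had 85.8, 54.0 and 61.8 in gel and 30.8, 32.5 and 27.3 in plastic (log2 fold change 1.12, SE 0.20, adjusted p 0.000324), and Ndufb3 of complex I had 68.8, 67.5 and 63.2 in gel and 37.8, 40.3 and 21.3 in plastic (log2 fold change 1.05). The groups were apart for both. Among the genes that fell were Ndufs1 of complex I and Uqcrc1 of complex III. Ndufs1 had 134, 161 and 158 in gel and 269, 256 and 247 in plastic (log2 fold change -0.77), and Uqcrc1 changed by -0.55. Without plastic replicate 3 the counts were 32 higher and 6 lower.

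Transcripts of the mitochondrial genome itself showed no common direction, with 6 of 13 protein-coding genes higher and 4 lower, 1 after GC correction. mt-Nd3, mt-Nd2 and mt-Nd6, all complex I subunits, rose by 1.18, 1.02 and 0.77. mt-Atp8, mt-Cytb and mt-Atp6 changed by -0.54, -0.49 (0 with quantile normalization) and -0.40. The small ribosomal RNA of mitochondria, mt-Rnr1, stood out with 948, 861 and 750.3 in gel and 274, 295 and 189.8 in plastic (log2 fold change 1.77, SE 0.14, adjusted p 1.23e-07), a ratio of means of 3.37. In sum, mitochondrial transcripts took 5.42% to 5.88% of the values in gel and 5.75% to 6.58% in plastic.

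Glycolytic genes were more often higher in gel while several enzymes of the citric acid cycle fell. Of 18 tested glycolysis genes 10 rose and 2 fell (median 0.33). Without gel replicate 1, or without gel replicate 3, 6 rose, and after GC correction 4 rose and the median was 0.18. Tpi1, triosephosphate isomerase, had 677, 643 and 720.0 in gel and 356, 358 and 334 in plastic (log2 fold change 0.96, SE 0.10, adjusted p 1.55e-06), and Ldha, the muscle-type lactate dehydrogenase subunit, had 1224, 1195 and 1463 in gel and 818, 767 and 776 in plastic (log2 fold change 0.71, SE 0.10, adjusted p 2.59e-05). The other subunit gene, Ldhb, was lower in gel at 1045 ± 164 in gel and 1446 ± 27.4 in plastic (SD, n = 3; log2 fold change -0.48). The glucose transporter gene Slc2a1 changed by -0.31, a call that DESeq2 and 7 other settings did not keep. Hypoxia-response genes showed 2 higher and 2 lower of 12, a share near that of all genes.

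In the citric acid cycle and pyruvate entry, 10 of 32 genes fell and 4 rose. Idh1, the cytosolic isocitrate dehydrogenase, had 345, 355 and 317 in gel and 677, 712 and 718 in plastic (log2 fold change -1.05, SE 0.10, adjusted p 5.47e-07), with every gel library below every plastic one. Got2, which links the cycle to aspartate, rose by 1.14, and Pdk1, a kinase that closes pyruvate entry, by 0.97, a call lost with DESeq2 and without gel replicate 2. Nucleotide and one-carbon synthesis lost more than it gained, with 13 of 29 lower and 5 higher. Gart and Pfas of purine synthesis changed by -1.04 and -0.98, yet Atic, which ends that pathway, rose by 1.32. Rrm1 of ribonucleotide reductase changed by -0.70.

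Lipid metabolism genes as a group differed about as often as all genes. Srebf2, the master regulator of sterol synthesis, was 38.2 ± 2.52 in gel and 9.52 ± 1.54 in plastic (SD, n = 3; log2 fold change 1.96), and Dhcr7, a late sterol reductase, rose by 1.32. Sqle, squalene epoxidase, acts earlier in the pathway and fell by 0.82. Srebf2 passed the filter on reads only through gel. Over 23 genes of sterol synthesis the counts were 4 higher and 5 lower, near the share over all genes, and 3 were lower without gel replicate 1 or 2 or plastic replicate 2 and 2 without plastic replicate 3. In fatty acid metabolism the synthetic enzymes Fasn (0.89), Acaca (1.08) and Scd2 (0.85) rose, and Acsl3 (-0.98), which activates fatty acids, fell. The oxidation enzymes Acadvl (-1.10) and Cpt2 (-0.80) were called lower, but both calls were lost with DESeq2 and without gel replicate 2 or plastic replicate 1 or 3, that of Acadvl also without gel replicate 1 and that of Cpt2 also without gel replicate 3 or plastic replicate 2. The call of Acaca was lost with DESeq2 and without gel replicate 1 or plastic replicate 2 or 3. The list had 5 higher and 6 lower of 25, near the share over all genes. The number higher was 3 without gel replicate 1 or plastic replicate 2 or 3, and the number lower was 3 without gel replicate 1 or plastic replicate 1 or 2.

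Genes of protein folding were more often lower in gel. A list of mostly cytosolic chaperones had 12 of 23 genes lower and 4 higher, 2 without gel replicate 1 (median -0.36). It also holds the mitochondrial chaperone genes Hspa9, Hspd1 and Hspe1 and the transcription factor gene Hsf1. Of the TRiC chaperonin, which folds actin and tubulin, 7 of 8 subunits fell. Hspa8, the constitutive HSP70, had 2580, 2910 and 2777 in gel and 4363, 4492 and 4073 in plastic (log2 fold change -0.65, SE 0.08, adjusted p 1.92e-05). Bag3, a co-chaperone of HSP70, rose by 1.51, and Hsp90aa1 (0.21) was not called. In the endoplasmic reticulum, Hspa5 (BiP), the main luminal chaperone, had 405, 392 and 429 in gel and 809, 822 and 884 in plastic (log2 fold change -1.04, SE 0.09, adjusted p 4.96e-07), and 9 of 20 chaperone and quality control genes fell while 3 rose, Hyou1 (1.01) among them.

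The proteasome changed unevenly. Over all 47 proteasome genes 8 rose and 11 fell, near the share over all genes, and 4 rose without gel replicate 1. Of 21 genes with a Psmc or Psmd symbol 11 fell and 1 rose. These symbols mark the regulatory cap but include Psmc3ip, which is not a cap subunit. Of 16 genes of the catalytic core 0 fell and 2 rose. Psmd2 of the cap had 322, 416 and 397 in gel and 769, 720.4 and 809 in plastic (log2 fold change -1.02, SE 0.11, adjusted p 2.23e-06). Psmb10, an inducible catalytic subunit, had 20.3, 19.7 and 23.4 in gel and 9.14, 11 and 7.59 in plastic (log2 fold change 1.16), with few reads. Psmb10 passed the filter on reads only through gel. Lysosome and autophagy genes fell in 18 of 34 cases and rose in 5 (median -0.41). Gusb, a lysosomal hydrolase, and Grn, the progranulin precursor, changed by -1.12 and -0.83, and Ctsd (cathepsin D) by -0.51, a call lost with DESeq2 and without gel replicate 2 or 3 or plastic replicate 1 or 3. Tfe3, a transcription factor for lysosomal genes, rose by 1.15 and Psap, the saposin precursor, by 1.55. Subunits of the vacuolar ATPase had 7 of 16 lower and 2 higher. Without plastic replicate 1, 2 or 3, the number of lysosome genes called lower was 10, 11 or 10.

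Cell cycle genes were more often lower than higher in gel. Of 43 genes of the G1/S transition and DNA replication 14 fell and 5 rose (median -0.16), with 2 or 3 higher without any 1 library. Of 49 G2/M genes 21 fell and 3 rose (median -0.25), 13 lower without plastic replicate 1 and 1 higher without gel replicate 3 or plastic replicate 3. All 6 subunits of the MCM helicase, which unwinds DNA at the fork, were called lower. Mcm6 had 376, 494 and 456 in gel and 748, 769 and 806 in plastic (log2 fold change -0.82, SE 0.11, adjusted p 1.94e-05), with every gel library below every plastic one. Kif20a, a kinesin of cytokinesis, had 131, 135 and 166 in gel and 340.0, 312 and 326 in plastic (log2 fold change -1.18, SE 0.12, adjusted p 1.59e-06), and Prc1, its partner at the spindle midzone, changed by -0.96. Ccnb1 (cyclin B1) changed by -0.67, while Cdk1 (-0.11) and Ccne1 (-0.04) were not called. Over all kinesins and dyneins 11 of 30 fell and 0 rose. E2f1 and E2f3, which drive G1/S transcription, had log2 fold changes of 1.08 and 0.93 and were called higher, but E2f1 lost its call under GC correction and without gel replicate 1 or 3 or plastic replicate 1 or 2, and E2f3 with DESeq2 and without any 1 gel library or plastic replicate 1 or 2.

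The p53 list had 6 genes lower and 3 higher of 18. Mdm2, its inhibitor and target, had 74.5, 112 and 70.1 in gel and 173, 152 and 229 in plastic (log2 fold change -1.12, SE 0.18, adjusted p 0.000111), and Plk2 changed by -1.82. Trp53 (0.19) and Cdkn1a (0.22) were not called. Of 13 genes of apoptosis 4 rose and 1 fell. Xiap and Mcl1, which both restrain cell death, rose by 1.43 and 0.97. Bax, which promotes it, was also called higher but changed sign under GC correction.

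Transcription and RNA processing held some of the largest rises. Of 53 genes for RNA polymerase II, Mediator and elongation factors 17 rose and 6 fell (median 0.23). The number lower was 2 or 3 without gel replicate 1 or any 1 plastic replicate. Polr2a, the catalytic subunit, had 124, 62.6 and 115 in gel and 10.4, 11.4 and 7.59 in plastic (log2 fold change 3.26, SE 0.26, adjusted p 1.23e-07), a ratio of means of 10.3. It passed the filter on reads only through gel, where it was high. The second largest subunit did the reverse: Polr2b had 129, 146 and 128 in gel and 241, 247 and 282 in plastic (log2 fold change -0.93, SE 0.12, adjusted p 1.65e-05). Supt5, the elongation factor that rides on the polymerase, rose by 2.03 and Med25 of Mediator by 1.68. Splicing factors and hnRNPs showed 25 higher and 11 lower of 70, led by Sf3b4 (2.36), Hnrnpl (1.62) and Sf3a1 (1.57), with Prpf39 (-0.85) and Sf3b3 (-0.56) among those that fell, 7 in number without gel replicate 1.

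Several chromatin regulators were higher. Polycomb genes had 6 of 19 called higher and 2 lower (median 0.43). Of the 15 with at least 10 reads in every library 4 were higher and 2 lower, with a median of -0.08. Cbx7, the main Polycomb reader of ES cells, had 38.4, 38.1 and 50.8 in gel and 9.97, 9.78 and 7.59 in plastic (log2 fold change 2.15, SE 0.26, adjusted p 1.12e-05). It passed the filter on reads only through gel. Pcgf2 and Rybp rose by 1.86 and 1.28. Ezh2, the methyltransferase, was not called (-0.30). Chromatin remodellers had 9 of 27 higher and 1 lower, among them Chd4 of the NuRD complex (1.11). The histone acetyltransferase genes Ep300 (1.72) and Kat2a (1.32) and the H3K79 methyltransferase gene Dot1l (2.45) rose, and Hdac2 (-0.70) fell. Of 28 genes of histone acetylation 9 rose and 2 fell. Histone methyltransferases and demethylases had 7 of 37 higher and 5 lower, near the share over all genes, and 4 to 8 higher and 2 to 6 lower without any 1 library. DNA methylation genes had 5 of 16 higher and 3 lower, 1 or 2 lower without any 1 library. Trim28, the corepressor of KRAB zinc finger proteins, had 944, 847 and 785 in gel and 458, 432 and 418 in plastic (log2 fold change 0.97, SE 0.10, adjusted p 1.59e-06).

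Zinc finger genes with a Zfp symbol, many of which encode KRAB repressors, went down: 67 of 190 tested fell and 12 rose, with a median of -0.39. Zfp869 had 3.39, 2.46 and 5.50 in gel and 21.2, 21.1 and 22.8 in plastic (log2 fold change -2.44), Zfp28 changed by -1.97 and Zfp433 by -1.50. Zfp598, a sensor of collided ribosomes, was an exception at 30.5, 22.1 and 24.7 in gel and 4.16, 4.30 and 4.55 in plastic (log2 fold change 2.43, SE 0.35, adjusted p 4.74e-05). Zfp598 passed the filter on reads only through gel, and Zfp869 only through plastic. The family is poor in GC, with a median exonic GC content of 42.0%, and the GC results below bear on it.

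Signalling genes linked to LIF were higher or not called. Of 11 tested LIF receptor genes and STAT3 targets 6 rose and 0 fell (median 0.62). After GC correction 4 rose (median 0.45), and with libraries thinned to equal depth 3 of 10 rose. Without plastic replicate 2, 5 rose and 1 fell. Socs3, the feedback inhibitor that STAT3 induces, had 21.4, 12.3 and 13.7 in gel and 1.25, 4.70 and 3.04 in plastic (log2 fold change 2.32, SE 0.51, adjusted p 0.00167), resting on few reads in plastic. Socs3 passed the filter on reads only through gel. Stat3 itself had 64.3, 57.7 and 55.0 in gel and 42.8, 29.0 and 25.8 in plastic (log2 fold change 0.88, SE 0.21, adjusted p 0.0027), and Bcl3 and Pim3 rose by 1.31 and 0.94. The call of Stat3 was lost with all libraries thinned to equal depth, and that of Pim3 with GC correction.

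WNT genes gave 7 higher and 2 lower of 13. The target Sp5 had 23.7, 13.5 and 28.9 in gel and 7.07, 6.65 and 4.55 in plastic (log2 fold change 1.73), Axin1 of the destruction complex rose by 1.71 and Tcf7l1, the repressor that WNT signalling removes, by 1.60. Gsk3b, the kinase that 2i inhibits, was lower at 117, 102 and 137 in gel and 253, 315 and 331 in plastic (log2 fold change -1.33, SE 0.14, adjusted p 1.79e-06). Axin2, the classic feedback target, was under the filter on reads and had 20.3, 11.1 and 20.6 in gel and 2.08, 0 and 0 in plastic. Genes that entered only through the group in which they were high had to differ, and of the 6 WNT genes with at least 10 reads in every library 1 rose and 2 fell.

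YAP and TEAD genes were higher in 8 of 10 tested cases and lower in 0 (median 0.88). Yap1 had 23.7, 28.2 and 22.0 in gel and 16.2, 7.83 and 6.07 in plastic (log2 fold change 1.37, SE 0.35, adjusted p 0.00486), and Amotl2 and Myof, both targets, rose by 0.98 and 1.06. Yap1 passed the filter on reads only through gel. Of the 6 with at least 10 reads in every library 5 rose. The immediate targets Ctgf and Cyr61 were too low to be tested.

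Actin genes were divided, with 18 of 38 higher and 9 lower (median 0.32), 5 lower without plastic replicate 1. Actn1, an actin crosslinker of adhesion sites, had 37.2, 28.2 and 42.6 in gel and 8.73, 6.65 and 4.55 in plastic (log2 fold change 2.38, SE 0.32, adjusted p 2.37e-05), Myh9, non-muscle myosin heavy chain, had 23.7, 18.4 and 17.9 in gel and 7.07, 5.09 and 7.59 in plastic (log2 fold change 1.54), and Diaph1, a formin, rose by 1.07. Actn1 and Myh9 passed the filter on reads only through gel. Actr2 and Arpc5 of the Arp2/3 complex and Tpm1 fell, by 0.66, 0.54 and 0.72, and Tpm1 lost its call with DESeq2 and without gel replicate 2 or plastic replicate 1 or 2. Actb rose by 0.48 while Actg1 (0.09) was not called. Vim, the intermediate filament gene, had 231, 253 and 219.9 in gel and 124, 139 and 119.9 in plastic (log2 fold change 0.87, SE 0.12, adjusted p 3.08e-05). Tubulins showed 0 of 13 higher and 2 lower as deposited, the latter near the share over all genes. After GC correction 6 of 13 were lower (median -0.25), against 17.3% of all genes. After GC and length correction 5 were lower (median -0.18), against 15.5%.

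At the cell surface, 4 of 11 integrin and focal adhesion genes rose and 0 fell, but 2 rose without gel replicate 1 or 2 or plastic replicate 1 or 2, and 1 with libraries thinned to equal depth. Src, a kinase of focal adhesions, rose by 1.78 and Tns3, a tensin, by 1.26. Itga6 (0.71) lost its call with DESeq2 and when any 1 library other than gel replicate 3 was left out, and Itgb1 (-0.37) was not called. Of 14 matrix genes 5 rose and 1 fell, and those that rose, Nid1 (1.04), Lama1 (0.99), Nid2 (0.68), Fn1 (0.67) and Lamc1 (0.59), encode basement membrane proteins and fibronectin. After GC correction the median of the matrix list went from 0.27 to 0.01. Junction genes had 5 of 16 higher and 3 lower, with 3 higher after GC correction and without gel replicate 3 or plastic replicate 3: besides Jup (2.74), Ctnnd1 (1.63) rose, Ctnna1 (-0.42) and F11r (-0.76) were among those that fell, and Cdh1 (0.11) and Ctnnb1 (-0.13) were not called. The TGF-beta and BMP list had 3 of 16 genes higher and 3 lower, a share near that of all genes. Id1 (1.22), Smad4 (1.33) and Smad7 (1.16) were called higher, none of them with at least 10 reads in every library, and Id1 lost its call without plastic replicate 1 or 2. Lefty1 (-1.24), Skil (-0.80) and Nodal (-0.74) fell. Naive pluripotency genes Klf2 (2.08) and Klf4 (1.84) rose, and Nanog (-0.34) fell.

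Cyp1a1, with the largest fall of all called genes, leads the targets of the aryl hydrocarbon receptor. This receptor binds planar aromatic compounds, joins ARNT and switches on xenobiotic-metabolising enzymes through sites with the core GCGTG. The promoters of 4 genes on the target list, Cyp1a1, Cyp1b1, Ahrr and Tiparp, are shown because they hold this core and the values of these genes were lower in every gel library. They are RefSeq promoters on GRCm38.p6 that run from 250 bases before to 50 bases after the annotated start, printed 5′ to 3′ on the gene's strand, with capitals for GCGTG and for CACGC, its complement.
Cyp1a1: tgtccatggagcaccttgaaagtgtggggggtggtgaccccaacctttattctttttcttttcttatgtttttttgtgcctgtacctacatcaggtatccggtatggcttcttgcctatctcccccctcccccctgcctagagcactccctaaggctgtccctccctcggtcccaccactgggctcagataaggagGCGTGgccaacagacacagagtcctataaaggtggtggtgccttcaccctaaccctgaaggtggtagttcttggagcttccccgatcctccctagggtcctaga
Cyp1b1: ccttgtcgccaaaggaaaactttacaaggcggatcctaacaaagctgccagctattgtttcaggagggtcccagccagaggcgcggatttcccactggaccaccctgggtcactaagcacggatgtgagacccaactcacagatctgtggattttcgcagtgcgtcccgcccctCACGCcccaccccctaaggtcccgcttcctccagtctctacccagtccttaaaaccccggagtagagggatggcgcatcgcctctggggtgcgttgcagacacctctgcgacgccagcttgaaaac
Ahrr: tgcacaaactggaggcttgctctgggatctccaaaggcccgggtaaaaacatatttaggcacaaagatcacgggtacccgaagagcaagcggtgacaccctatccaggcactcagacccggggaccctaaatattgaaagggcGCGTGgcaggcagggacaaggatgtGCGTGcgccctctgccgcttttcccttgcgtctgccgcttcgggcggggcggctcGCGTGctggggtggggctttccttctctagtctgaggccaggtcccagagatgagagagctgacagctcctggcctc
Tiparp: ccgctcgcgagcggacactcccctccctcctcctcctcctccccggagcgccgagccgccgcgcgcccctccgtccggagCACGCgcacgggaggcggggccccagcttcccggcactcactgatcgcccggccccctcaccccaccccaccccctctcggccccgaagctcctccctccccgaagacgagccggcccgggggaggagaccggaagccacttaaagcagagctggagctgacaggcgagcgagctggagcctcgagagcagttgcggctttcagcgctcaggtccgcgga
These lie at chr9:57697363-57697662, plus strand (Cyp1a1), chr17:79715012-79715311, minus strand (Cyp1b1), chr13:74292282-74292581, minus strand (Ahrr) and chr3:65528197-65528496, plus strand (Tiparp). Matches begin 54 bases before the RefSeq start in Cyp1a1, 76 in Cyp1b1, 107, 82 and 27 in Ahrr and 170 in Tiparp. The gene coordinates of Cyp1a1 given below come from another annotation, GENCODE M21, and begin upstream of the printed bases. Nqo1 was lower too, and the 300 bases of its promoter hold 0 matches. The core on either strand is common, present in 32.2% of 27025 promoters (1 per symbol) and in 55.1% of the 5617 promoters of tested genes, so a match describes the sequence and no more.

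Cyp1a1, the cytochrome P450 that serves as the standard readout of the receptor (chromosome 9, 57687928 to 57703824, plus strand, protein coding), had 3.39, 0 and 4.12 in gel and 202, 241 and 220.1 in plastic. Gel and plastic were far apart, and the mean was 88.4 times as high in plastic (log2 fold change -6.73, SE 0.54, adjusted p 1.23e-07). Its relative Cyp1b1 had no read in the gel libraries and values of 6.23, 5.48 and 7.59 in plastic. Taking 3 reads in the summed gel libraries as the limit of a 0, its level was at least 4.81-fold lower there. Ahrr, the repressor that the receptor induces, had 0, 1.23 and 0 in gel and 4.99, 2.74 and 4.55 in plastic, and neither of these 2 passed the filter on reads. Nqo1, a quinone reductase that NRF2 also controls, had 131, 133 and 107 in gel and 329, 361 and 358 in plastic (log2 fold change -1.50, SE 0.12, adjusted p 1.23e-07). Tiparp, an ADP-ribosyltransferase target, had 16.9, 24.6 and 39.9 in gel and 44.1, 43.0 and 69.8 in plastic (log2 fold change -0.98, SE 0.27, adjusted p 0.00832), a call lost without gel replicate 1, without plastic replicate 3 and after GC and length correction. Over the list 4 of 6 tested genes, Nfe2l2 the fourth of them, fell and 0 rose. Cyp1a1 passed the filter only through plastic, and of the 5 genes with at least 10 reads in every library 3 were lower (median -0.67). Ahr itself, chosen here after its values were seen and not tested, had 11.3, 13.5 and 9.62 in gel and 1.25, 5.09 and 6.07 in plastic. Leaving out gel replicate 2, the library with no Cyp1a1 read, moved the Cyp1a1 fold change to -5.71.

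Oxidative stress genes under NRF2 went both ways, with 8 of 28 lower and 4 higher, and 5 lower without plastic replicate 1. Nfe2l2, which encodes NRF2, changed by -0.67 and Prdx6, a peroxiredoxin, by -0.84. Gclc of glutathione synthesis and Txn1 rose by 0.82 and 0.78, and Hmox1 (-0.09) was not called.

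**Figure D3:**
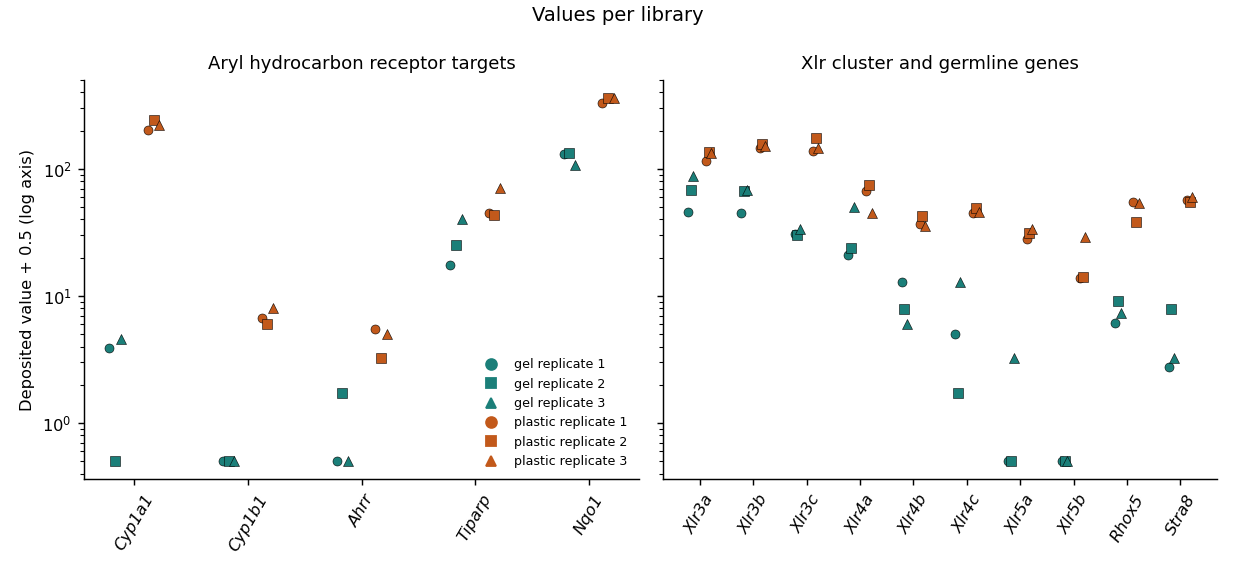
Deposited value + 0.5 (log axis) in each of the 6 libraries for 5 aryl hydrocarbon receptor targets (left) and for the Xlr genes, Rhox5 and Stra8 (right). The 3 gel libraries lie below the 3 plastic libraries for every gene shown except Xlr4a, where gel replicate 3 exceeds plastic replicate 3.

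The X-linked Xlr family, lymphoid-regulated genes that are also expressed in the germline, fell as a whole: all 8 tested members were called lower, with a median of -2.22. Xlr3c (chromosome X, 73254540 to 73265390, minus strand) had 30.5, 29.5 and 33.0 in gel and 138, 174 and 144 in plastic (log2 fold change -2.27, SE 0.16, adjusted p 5.32e-08). Xlr4c had 4.51, 1.23 and 12.4 in gel and 44.1, 48.9 and 45.5 in plastic (log2 fold change -3.28, SE 0.49, adjusted p 6.23e-05). Xlr5a had 0, 0 and 2.75 in gel and 27.4, 30.9 and 33.4 in plastic (log2 fold change -5.05, SE 0.67, adjusted p 2.32e-05), and Xlr5b had 0 reads in gel against 86 in plastic, at least 12.2-fold lower by the same limit. Xlr4a was the only member whose groups overlapped. Near-identical copies share reads in an unknown way: of all stretches of 25 bases in Xlr5a transcripts 85.0% also occur in Xlr5b, 59.4% of those in Xlr3a occur in Xlr3b and 56.1% of those in Xlr4b in Xlr4c. Of those in Xlr3c 80.3% occur in Xlr3b, and of those in Xlr4a 82.5% occur in Xlr4c. Xlr3c and Xlr5a share 0. Both were called lower, but Xlr5a passed the filter on reads only through plastic, so its fall is no independent support. The part of shared reads in these falls was not tested. With at least 10 reads required in every library 4 members remained and all fell, with a median of -1.21, so the size of -2.22 rests in part on members that passed the filter only through plastic.

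Germline genes were lower as well, with 6 of 9 tested called lower and 0 higher (median -0.97). Some, Stra8 and Rhox5 among them, had under 10 reads in gel libraries and passed the filter through plastic, and of the 6 with at least 10 reads in every library 4 were lower (median -0.81). Stra8, the retinoic acid-induced gate to meiosis (chromosome 6, 34920163 to 34939344, plus strand), had 2.26, 7.37 and 2.75 in gel and 56.5, 54.8 and 59.2 in plastic (log2 fold change -3.79, SE 0.36, adjusted p 7.58e-07). Rhox5, an X-linked homeobox gene, had 5.64, 8.6 and 6.87 in gel and 54.0, 37.6 and 53.1 in plastic (log2 fold change -2.69, SE 0.28, adjusted p 2.01e-06). Fkbp6, a piRNA pathway factor, and Dazl, an RNA-binding protein of germ cells, changed by -1.25 and -0.97. Among imprinted genes 5 of 14 fell and 2 rose. Impact, a regulator of GCN2, had 313, 335 and 381 in gel and 857, 1010 and 953 in plastic (log2 fold change -1.46, SE 0.10, adjusted p 5.92e-08), and Mest changed by -0.94, while Plagl1 rose by 0.82 and Meg3 (0.44) was not called.

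Other genes among the 12 largest falls by the naming rule were 1700013H16Rik at 3.39, 18.4 and 12.4 in gel and 106, 104 and 100.2 in plastic, Ube2l6, an ISG15-conjugating enzyme, at 7.90, 4.91 and 12.4 in gel and 41.1, 35.2 and 41.0 in plastic, and Dpp4, a membrane peptidase, at 20.3, 18.4 and 27.5 in gel and 75.6, 92.7 and 88.1 in plastic. Gel values lay under all plastic values for each, which the naming rule required. 1700013H16Rik and Ube2l6 passed the filter on reads only through plastic. Gm7292, Rbm47 and Ncs1 changed by -2.01, -1.88 and -1.84. The long noncoding RNA Tug1 had 53, 67.5 and 61.8 in gel and 202, 178 and 209.5 in plastic (log2 fold change -1.69, SE 0.14, adjusted p 1.91e-07), and Malat1 (-0.18) was not called.

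The largest rise was in Lars2 (chromosome 9, 123366927 to 123462666, plus strand), annotated as the mitochondrial leucyl-tRNA synthetase, with 3012, 1443 and 1520 in gel and 15.4, 12.9 and 13.7 in plastic (log2 fold change 7.02, SE 0.20, adjusted p 1.05e-14). Lars2, Gm26917, Gm23935 and Gm15564 are symbols in which reads of ribosomal RNA are known to be counted in mouse data. The list that holds them, with abundant small RNAs, had 4 tested genes. Of these 3 were called higher and 1 lower (log2 fold change -0.76), and 0 were lower after GC correction. Gm26917 had 158, 94.5 and 133 in gel and 26.6, 21.1 and 27.3 in plastic (log2 fold change 2.32, SE 0.20, adjusted p 2.23e-07), and Gm23935, annotated as a miRNA gene, 83.5, 51.6 and 46.7 in gel and 3.74, 1.96 and 4.55 in plastic (log2 fold change 3.98, SE 0.35, adjusted p 3.69e-07). Gm23935 passed the filter on reads only through gel. Gm15564, named after its values were seen and not tested, had 16.9, 7.37 and 5.50 in gel and 0.416, 0.391 and 0 in plastic. Annotated transcripts of Lars2 and Gm15564 share a run of 52 bases, which is in 2 of 9 Lars2 transcripts. Other mitochondrial tRNA synthetases did not rise with Lars2: of the 13 tested, it was the 1 that rose. What the Lars2 reads derive from was not tested.

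Atxn2l, a stress granule protein, had 49.7, 43.0 and 35.7 in gel and 0.416, 1.17 and 1.52 in plastic (log2 fold change 4.88, SE 0.45, adjusted p 5.52e-07), on very few plastic reads. Slc7a5, the leucine transporter LAT1, had 38.4, 33.2 and 37.1 in gel and 3.33, 3.52 and 12.1 in plastic (log2 fold change 2.66, SE 0.40, adjusted p 6.39e-05), and Slc7a1, which carries arginine and lysine, rose by 1.68. Slc7a5 had few reads in plastic, and Atxn2l and Slc7a5 passed the filter on reads only through gel. Hmga1, an architectural chromatin protein, had 202, 122 and 148 in gel and 32.4, 21.9 and 30.4 in plastic (log2 fold change 2.45, SE 0.20, adjusted p 1.23e-07), and its transcripts share 64.6% of their stretches of 25 bases with Hmga1b. Ybx1, an abundant RNA-binding protein, had 889, 707 and 867 in gel and 347, 317 and 316 in plastic (log2 fold change 1.32, SE 0.11, adjusted p 1.23e-07). Tbc1d13, Pelp1 and Arf5 rose by 2.64, 2.82 and 2.42. For Ap2a1 of the AP-2 clathrin adaptor the values were 27.1, 18.4 and 17.9 in gel and 4.16, 3.13 and 0 in plastic, and the log2 fold change of 3.38 moved to 2.37 without plastic replicate 3. Ap2a1 passed the filter on reads only through gel. Over 108 solute carriers 26 fell (24.1%, against 18.6% of all tested genes) and 13 rose (12%, against 18.3%). Slc43a1, another amino acid carrier, was lowest at -2.67.

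The fold change followed the base composition of the transcripts. Sorted by exonic GC content into 10 groups of equal size, genes with the least GC (31.9% to 40.6%) showed a median of -0.29 on the log2 scale, and 7.55% of them were called higher and 32.9% lower. Genes with the most GC (56% to 73.7%) had a median of 0.38, with 39.6% higher and 4.17% lower, and the groups between rose nearly step by step. Across 7675 genes with an annotated length the Spearman correlation of GC content with the fold change was 0.292, a description across genes, which are not independent. Each library took part: the correlation of GC content with its deviation from the mean of all 6 was 0.231, 0.138 and 0.319 in gel and -0.203, -0.330 and -0.201 in plastic.

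**Figure D4:**
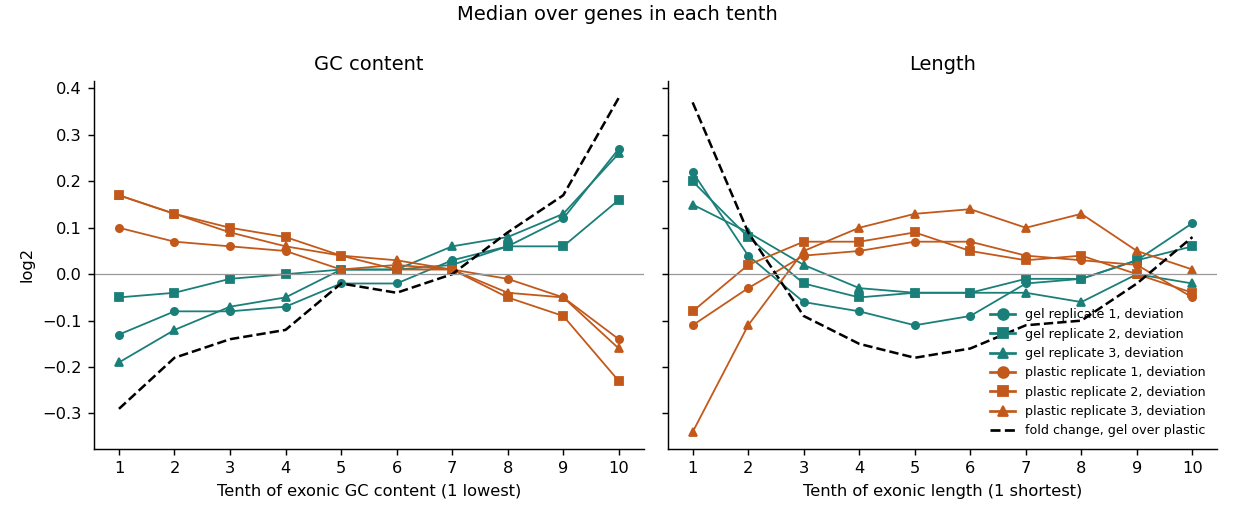
Median log2 deviation of each library from the mean of the 6 libraries (solid lines) and median log2 fold change of gel over plastic (dashed) in 10 equal groups of genes by exonic GC content (left) and exonic length (right). Gel lines climb and plastic lines descend with GC content, reaching 0.38 for the fold change, and plastic replicate 3 stands lowest, at -0.34, in the group of shortest genes.

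Length showed a bent relation. The shortest group (57 to 1063 bases of merged exons) had a median of 0.37 with 42.2% called higher, genes of 3328 to 4045 bases had -0.18 and the longest group had 0.08. In the shortest group plastic replicate 3 deviated most, at -0.34, against -0.11 and -0.08 in the other plastic libraries and 0.15 to 0.22 in gel. Processed pseudogenes, which are short, rose in 217 of 614 cases and fell in 62 (median 0.26), while of 6910 protein-coding genes 1146 rose and 1342 fell (median -0.05). Among the autosomes and X, chromosome 8 had the lowest median, -0.19 over 405 genes, with 27.4% lower and 13.1% higher. The others lay between -0.11 and 0.08. GC correction left chromosome 8 at -0.20, and its median deviations were -0.11, -0.10 and 0.01 in gel and 0.07, 0.08 and 0.12 in plastic.

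Lists were therefore read again after smooth curves on GC content, or on GC content and length, had been taken out of each library. With GC correction 17% of genes were called higher and 17.3% lower, and with GC and length correction 15.7% and 15.5%. Of 2831 called genes with an annotation 78.3% kept their call under the first and 68.3% under the second, where 12 were called in the opposite direction. Ribosomal proteins kept a median of 0.52 with 59 of 84 higher and 1 lower after both corrections, and nuclear oxidative phosphorylation genes 0.30 with 35 of 82 higher and 6 lower. Single genes moved more: Rplp1 went to 0.48 and Atp5k to 0.57.

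Xlr genes (median -1.95, 8 lower), tRNA synthetases (-0.35, 12 lower), lysosome genes (-0.38, 17 lower) and YAP and TEAD genes (0.67, 7 higher) also stayed on the same side after both corrections. Zfp genes shrank from -0.39 to -0.17 and from 67 to 27 lower, G2/M genes from -0.25 to -0.09 and from 21 to 15 lower, and endoplasmic reticulum chaperones to -0.05. Glycolysis kept 5 of 17 genes higher. Histone genes lost their rise: as deposited 10 of 21 rose (median 0.71), among them Hist1h2ad at 126, 120.3 and 119.5 in gel and 61.1, 68.1 and 54.7 in plastic, and after both corrections 3 rose, 3 fell and the median was -0.21. The part of GC content and length in any single result was not tested beyond these corrections.

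**Figure D5:**
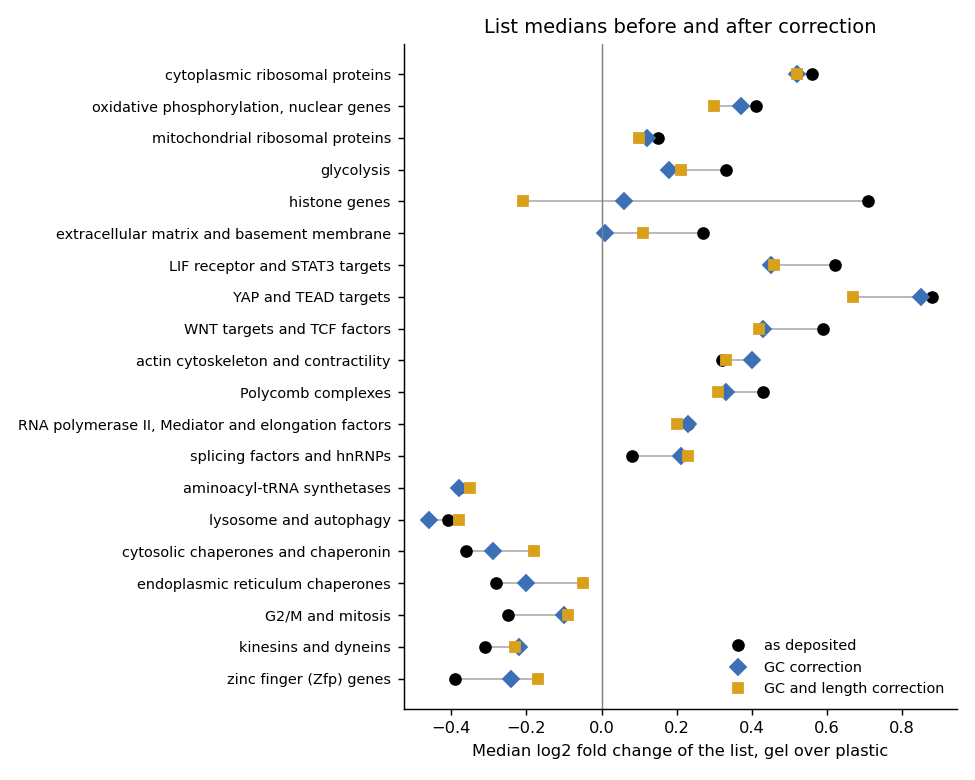
Median log2 fold change of 20 gene lists as deposited (circles), after GC correction (diamonds) and after GC and length correction (squares). Ribosomal proteins stay at or above 0.52 in all 3, whereas histone genes move from 0.71 to -0.21.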

How the data were processed

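Bulk RNA of 3 gel and 3 plastic samples was read with Smart-seq2. The deposited values are a signal that the authors made by dividing gene counts by 1 factor per library, as judged from the values: every value was a whole multiple of the library's smallest value above 0, and 100% came out as whole reads within 0.01 reads. STAR, featureCounts and DESeq2 and the builds mm10 and GRCm38 are named without versions in the submitters' processing notes, and whether counting used strand is not given in the sources used here. The names of the plastic columns hold a mark for each substrate and were read as plastic. For the second plastic library title and description give unlike numbers, and the title was followed. Of the listed names 15 look like dates and match no gene.

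Genes that passed edgeR's expression filter on recovered reads were tested on log2(value + 0.5) by limma (3.58.1, under R 4.3.3), whose prior spread followed the mean level. The pseudocount understates changes of low genes. Adjusted p-values are Benjamini-Hochberg, two-sided, with a threshold of 0.05. Alternatives on recovered reads used edgeR (4.0.16) and DESeq2 (1.42.0), and others changed pseudocount, filter, scaling or depth, or left out 1 library. GC content and length are of merged exons in GENCODE M21 (GRCm38), corrected with loess curves of span 0.3, and coordinates come from it. Simulated reads were drawn with the depths and estimated spread of these libraries but without any trend with GC content or length. With 200 of 7878 genes changed, 98% of 4-fold, 74% of 2-fold and 32% of 1.5-fold changes were called, and 0 genes when none was changed. False calls from such trends were not tested by it.

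The 68 gene lists and the naming of genes were chosen with earlier results of these data known. The text names, of called genes with separate groups and a mean of at least 20, the 12 that rose most and the 12 that fell most, up to 3 called genes per direction in each list with a mean of at least 10, anchor genes of each list, and the 2 highest genes of a list without a call. Replicates of a group correlated at 0.953 to 0.985. No 2 libraries agreed within sampling noise (chi-square per degree of freedom 1.58 to 2.20). The single-cell files were not used. Some genes that the naming rule selects are not reported here.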

Additional observations from a re-analysis of the deposited data

How the results depend on the processing

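The count of genes called between gel and plastic, 2906, was 3158 with edgeR, 2188 with DESeq2 and 2334 with all libraries thinned to 637235 reads, and 2361 to 2833 when 1 library was left out (1142 to 1395 higher, 1108 to 1438 lower). Counting only called genes at least 1 log2 unit apart gave 727 (453 higher, 274 lower). With the replicate block it was 2988, but same-numbered gel and plastic libraries did not deviate together (correlations of -0.052, 0.016 and 0.024). Libraries of unlike number gave -0.064 to 0.05, so these values cannot show whether the numbers mark pairs. The correlation with GC content of 0.292 lay between 0.255 and 0.313 when 1 library was left out, and was 0.005 after GC correction, with or without the replicate block, and 0.012 after GC and length correction, by construction. Of 319 named genes that were called, 223 kept call and direction throughout the alternatives that tested them, and 94 lost the call in at least 1. GC correction, with or without the replicate block, turned Apoe to -0.027, Banf1 to -0.183, Bax to -0.025, Hspb1 to -0.203 and the Hist1h2an log2 fold change to -0.048, and GC and length correction turned Banf1 to -0.201, Bax to -0.025, Hist1h2an to -0.216, Hist1h2ap to -0.098 and Hspb1 to -0.301. Quantile normalization gave mt-Cytb 0; the cause was not tested. Plastic held 1 to 3 reads of Atxn2l and 0 to 10 of Ap2a1 per library, so the sizes of these rises are imprecise. The comparison with the single-cell data was not run.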

Other observations

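Genes of the Zscan4 cluster, which mark a rare 2-cell-like state of ES cells, differed more between libraries of a group than between groups. Zscan4c had values of 40.6, 0 and 0 in gel and 0.831, 50.1 and 12.1 in plastic, and Zscan4f had 70.0, 0 and 0 in gel and 0.416, 56.0 and 13.7 in plastic. The same libraries, gel replicate 1 and plastic replicate 2, were high for both, and neither gene was called (adjusted p 0.224 and 0.359 by limma). This hung on single libraries: without gel replicate 1 both were called lower in gel (log2 fold changes of -4.25 and -4.17 for Zscan4c and Zscan4f), and they were also called lower without plastic replicate 1. Reads may be divided between the near-identical copies of this cluster.

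Genes of the Y chromosome were lower in gel and lowest in gel replicate 1, as seen in genes named after their values were seen. Ddx3y, an RNA helicase, had 9.03, 30.7 and 35.7 in gel and 65.7, 68.5 and 69.8 in plastic, Uty, a histone demethylase homologue, had 9.03, 11.1 and 12.4 in gel and 21.6, 31.3 and 30.4 in plastic, and Eif2s3y, a translation initiation factor subunit, had 32.7, 86.0 and 98.9 in gel and 119, 122 and 94.1 in plastic. Of 6 tested Y-linked genes 4 were called lower and 0 higher. Without gel replicate 1 the log2 fold change of Ddx3y moved from -1.63 to -1.03, and Eif2s3y was no longer called. X-linked genes as a whole had a median of -0.05 over 279 tested.

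Eif4ebp2, a repressor of cap-dependent translation chosen here for its value, had 14.7, 14.7 and 16.5 in gel and 3.33, 0.391 and 1.52 in plastic (log2 fold change 3.05, SE 0.59, adjusted p 0.00068). Peg12, an imprinted gene also chosen for its value, had 0, 2.46 and 6.87 in gel and 14.6, 12.5 and 16.7 in plastic (log2 fold change -2.76, SE 0.73, adjusted p 0.00678). Eif4ebp2 passed the filter on reads only through gel and Peg12 only through plastic. Since both were also chosen for their values, these p-values carry no weight.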
